A study of Mus musculus with 2 samples.

Results

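The 2 windows of the mouse genome drawn to hold the replication-dependent histone genes contained 26 of the 7732 chromatin loops listed for the bromodomain protein BRD2 in embryonic stem cells. A loop was counted when its left or right edge lay inside 21700000 to 23900000 on chromosome 13, the Hist1 window, or inside 95950000 to 96150000 on chromosome 3, the Hist2 window (positions on mm9, as the list gives them). The Hist1 window held 18 loops and the Hist2 window 8, and in all 26 both edges lay inside the window. None was longer than 5 Mb, so no loop had to be set apart.

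The loops were measured by ChIA-PET, an assay that pulls down the chromatin bound by a protein, here BRD2, joins DNA ends that lie close together and identifies the joined places by sequencing both ends of each product. The cells were untreated wild-type V6.5, a mouse embryonic stem cell line grown with serum and LIF on irradiated mouse embryonic fibroblasts. The 2 replicates form 1 group and were merged by the authors into a single list, so no value below has a replicate error and no conditions can be compared. The number of reads behind the list is unknown. The list gives each loop 1 score, in steps of 1000 with 2000 as the lowest, whose unit is not stated.

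Replication-dependent histone genes supply the core histones H2A, H2B, H3 and H4 and the linker histone H1 that package newly made DNA. They lack introns, lie side by side in clusters, are transcribed most strongly in S phase and give mRNAs that end in a stem-loop instead of a poly(A) tail. In the nucleus the clusters associate with the histone locus body, where factors for their transcription and mRNA processing collect. BRD2 belongs to the BET family, whose bromodomains bind acetylated lysines, those of histone H4 among them, and the study concerns its part in transcription initiation by RNA polymerase II.

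RefSeq (GRCm38.p6) lists 66 genes on these 2 chromosomes with a Hist1h or Hist2h name, 56 on chromosome 13 and 10 on chromosome 3. By type, 6 encode the linker histone H1, 19 are H2A genes, 17 H2B, 12 H3 and 12 H4, and 2 of the H2A genes are pseudogenes (H2ac14 and H2af-ps2). In gene order, those on chromosome 13 fall into runs broken wherever 5 or more other genes follow each other. The first run, from H2bc13 to H4bc24, has 19 histone genes and 1 other gene among them. The second, from H2ac12 to H2bc11, has 5, and 39 genes lie between it and the first, 31 of them tRNA genes. The third, from H4c8 to H1f1, has 29 and holds 5 of the 6 H1 genes. Between the second and the third run lie 147 genes, of which 75 are named as vomeronasal receptor genes or pseudogenes (Vmn1r) and 46 are tRNA genes. The pair H2bc1 and H2ac1 follows the third run after 8 other genes, and H2af-ps2 comes another 491 genes later. On chromosome 3 a single run from H2ac21 to H2bc18 has 10 histone genes, 4 of H2A, 2 of H2B, 3 of H3 and 1 of H4, and none of H1. This gene table is on another build than the loops, so genes were not placed at loop edges. Whether a given edge lies at a histone gene, and whether the windows hold every gene of this list, was not analysed here. H2bc1, H2ac1 and H2af-ps2, which come last in the order on chromosome 13, are the most doubtful.

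The promoters below show the regulatory sequence of the genes for which the windows were chosen. They are the 250 bases before the RefSeq start of 1 gene of each type, on GRCm38.p6, whose positions must not be set against the mm9 positions of the loops. H1f1 (linker histone H1), H3c10 and H4c1 are the first of their type by symbol among the genes with a sequence in the promoter table. For H2A and H2B the first by symbol are H2ac1 and H2bc1, which form a run of their own after the 3 longer ones. H2ac12 and H2bc12, of the second run, are shown in their place and were chosen after their motifs had been seen. Capitals mark 3 motifs on either strand, the octamer ATTTGCAT known from H2B promoters and bound by OCT proteins, the TATA box TATAAA and the CCAAT box. No 2 of these overlap in the 5 sequences.
H1f1, chr13:23763418-23763667, plus strand: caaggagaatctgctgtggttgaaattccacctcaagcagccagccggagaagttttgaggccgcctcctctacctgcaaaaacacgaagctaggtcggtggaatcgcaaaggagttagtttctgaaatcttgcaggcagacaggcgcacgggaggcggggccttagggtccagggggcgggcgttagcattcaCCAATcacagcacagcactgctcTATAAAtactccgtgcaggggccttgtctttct
H2ac12, chr13:22035644-22035893, minus strand: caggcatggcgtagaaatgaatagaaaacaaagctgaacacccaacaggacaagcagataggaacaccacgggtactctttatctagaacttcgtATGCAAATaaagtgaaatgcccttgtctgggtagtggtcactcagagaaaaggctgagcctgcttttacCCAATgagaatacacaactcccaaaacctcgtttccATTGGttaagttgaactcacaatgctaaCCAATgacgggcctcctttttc
H2bc12, chr13:22035571-22035820, plus strand: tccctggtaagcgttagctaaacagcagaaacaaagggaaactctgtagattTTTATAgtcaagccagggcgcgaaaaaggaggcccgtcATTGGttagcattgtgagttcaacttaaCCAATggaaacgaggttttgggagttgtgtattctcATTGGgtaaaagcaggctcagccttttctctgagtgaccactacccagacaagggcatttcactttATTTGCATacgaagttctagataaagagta
H3c10, chr13:21717378-21717627, plus strand: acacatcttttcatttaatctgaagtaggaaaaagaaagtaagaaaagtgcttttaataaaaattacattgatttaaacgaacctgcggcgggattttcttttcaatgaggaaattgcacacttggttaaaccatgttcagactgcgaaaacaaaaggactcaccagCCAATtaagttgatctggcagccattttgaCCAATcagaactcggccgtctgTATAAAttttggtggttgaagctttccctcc
H4c1, chr13:23761250-23761499, minus strand: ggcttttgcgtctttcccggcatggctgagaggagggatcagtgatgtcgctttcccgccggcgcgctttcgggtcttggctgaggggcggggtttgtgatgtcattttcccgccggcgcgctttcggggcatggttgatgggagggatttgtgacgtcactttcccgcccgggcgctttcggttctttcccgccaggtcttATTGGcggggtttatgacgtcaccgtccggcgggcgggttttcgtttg

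The octamer on the H2bc12 line begins 30 bases before the start of that gene. The H2ac12 line shows the same 8 bases from the opposite strand, 155 bases before the start of H2ac12, because both genes are read away from each other and share 177 of these bases. Of the 17 H2A and 15 H2B genes with a promoter in the table, 10 pairs shared upstream bases on opposite strands. The octamer was found in 3 of these 10 pairs (H2ac1 and H2bc1, H2ac8 and H2bc8, and the pair shown), so the pair shown is not typical in this respect.

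The octamer was found in the 250 bases of 7 of 15 H2B genes, each time on the strand of the gene, and in 6 of 17 H2A genes, each time on the other strand. It was found in 0 of 6 H1, 0 of 10 H3 and 0 of 11 H4 genes, and in 1.60% of all 32851 promoters of the table. TATAAA stood on either strand in 28 of the 59 histone genes with a promoter (47.5%), against 12.4% of all promoters. In 23 of these genes it stood on the strand of the gene. It began 33 bases before the start of H1f1 and 31 before that of H3c10. CCAAT stood in 49 of the 59 (83.1%), against 33.8% of all promoters. CCAAT was in all 6 H1, all 17 H2A and all 15 H2B genes, in 8 of 10 H3 genes and in 3 of 11 H4 genes. These are letter matches in RefSeq sequence and not sites of binding. Promoters shared by a pair of genes were counted for each of them. A histone gene was counted when any of its listed promoters held the motif, while the share of all promoters counts each promoter.

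Most histone-window loops were short. Their median length was 12.2 kb (exact 95% order-statistic interval 7.58 to 25.4 kb), against 27.7 kb over the 7570 loops of up to 5 Mb in the list. Loops of up to 10 kb numbered 11 of 26, or 42.3% (exact Clopper-Pearson 95% interval 23.4 to 63.1%), against 1351 of 7732, or 17.5%, in the whole list. Of these 11, 8 lay in the Hist1 and 3 in the Hist2 window. At the other end, 4 of 26 loops (15.4%, interval 4.36 to 34.9%) were longer than 50 kb, against 34.8% of the list. The shortest was 5.53 kb and the longest 105 kb, the sole one above 100 kb. The 2 windows had similar medians, 12.2 kb in Hist1 and 13.4 kb in Hist2. No test of these differences was made, because the list is a single merged sample and its loops share anchors, so that they are not replicates. The intervals cover counting error only.

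**Figure D1:**
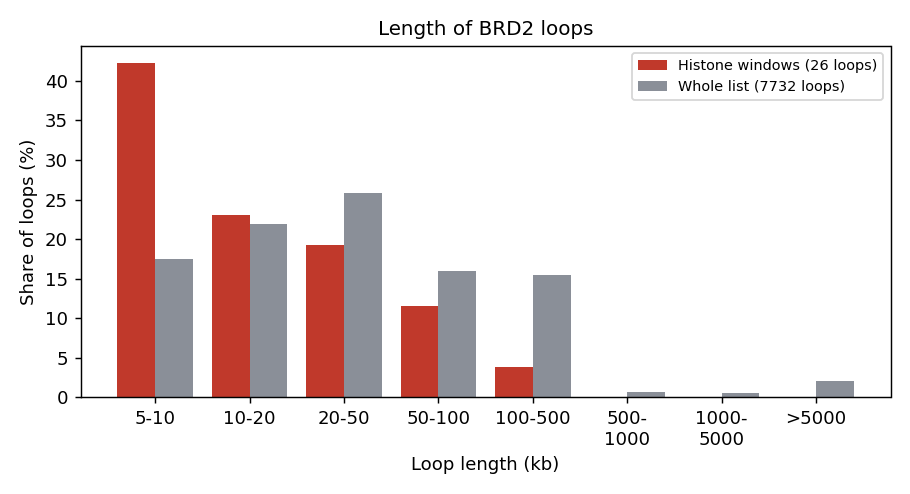
Share of loops (vertical axis, percent) in 8 classes of loop length (horizontal axis, kb) for the 26 loops of the histone windows (red) and all 7732 loops of the list (grey). The class of 5 to 10 kb holds 42.3% of the histone-window loops, against 17.5% of the list, and the classes above 500 kb hold none of the histone-window loops.

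Most of these loops had the lowest score, as did most loops of the list. The lowest score, 2000, was held by 19 loops, a score of 3000 by 4, one of 4000 by 2 and one of 5000 by 1. A score of 3000 or more was thus held by 7 of 26 loops, or 26.9% (exact Clopper-Pearson 95% interval 11.6 to 47.8%), against 42.2% of the whole list. The list value lies inside this interval. No loop scored above 5000, against 8.54% of the list, a share at which few of 26 loops would be counted. The mean score was 2423 ± 809 (SD over 26 loops), against 3104 ± 2271 over the 7544 other loops of up to 5 Mb.

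Since score falls with length in this list, the shares were also set against loops of the same length. Other loops, weighted to the same length classes, held a score of 3000 or more in 49.6% of cases, which lies just above the interval of the histone-window loops. That interval treats loops as independent, though many share anchors. A set of 8 Hist1 loops and one of 4 Hist2 loops, each joined through shared anchors, were wholly at 2000. A difference in score was therefore not tested. Between 5 and 10 kb the share was 3 of 11 (27.3%, interval 6.02 to 61.0%), against 58.0% of 1340 other loops of that length. Between 10 and 20 kb it was 3 of 6, against 52.8% of 1690. Between 20 and 50 kb it was 1 of 5, against 41.9% of 1993. Of the 4 longer loops none reached 3000, against 32.7% of other loops of 50 to 100 kb and 27.5% of those of 100 to 500 kb. In each single class the share of the other loops fell inside the interval of the histone-window loops, so a lower share was not detectable class by class at these numbers.

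**Figure D2:**
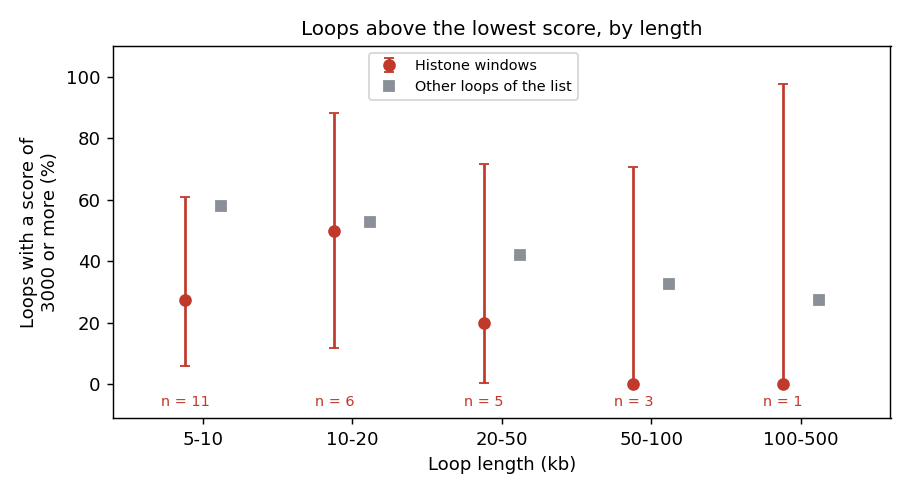
Share of loops with a score of 3000 or more (vertical axis, percent) by loop length (horizontal axis, kb), for the histone-window loops (red circles, with exact 95% intervals and the number of loops below) and the other loops of the list (grey squares). The red points lie below the grey ones in all 5 classes, and the grey squares lie inside all 5 intervals.

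Loops were closely packed in both windows. The Hist1 window held 8.18 loops per Mb, against 2.05 per Mb over the extent of chromosome 13, and its 18 loops were 7.53% of the 239 on that chromosome. When all chromosomes were divided into 1189 tiles of 2.2 Mb, 142 tiles (11.9%) held 18 or more loops and the fullest held 74. The Hist2 window held 40 loops per Mb, against 2.22 per Mb over the extent of chromosome 3. Of 13000 tiles of 0.2 Mb, 301 (2.32%) held 8 or more loops and 76.6% held none. Both windows were placed to hold gene clusters and with earlier results of the list known, so these figures describe them and do not set them apart from other gene-dense places.

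The loops of the Hist1 window left its middle empty. No loop edge lay between 22135057 and 23493572, a stretch of 1.36 Mb. Before it, 5 loops spread over 333 kb, and after it 13 loops lay within 362 kb, or 15 and 35.9 loops per Mb. These spans run from the first to the last loop edge of each side, so the densities cannot be set against those of whole windows. Anchor-free stretches of this width were not rare, with 24 among the 312 spaces between neighbouring anchors on chromosome 13. Many vomeronasal receptor genes separate the second and the third run of histone genes in the gene order, but whether the anchor-free stretch is that interval cannot be read from tables on another build.

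No listed loop joined the 2 sides of this stretch, and none of 500 kb to 5 Mb had an edge in either window. Contacts between the sides would span 1.36 to 2.05 Mb, a range in which the whole list has 8 loops. Chromosome 13 had 2 loops of 500 kb to 5 Mb, and 0 of its 239 loops were 1 to 5 Mb long. With so few loops of that length, a missing contact between the histone clusters was not detectable as such and is not shown to be absent. The list holds pairs within a chromosome, so contacts between the Hist1 and Hist2 clusters lie outside what it can show. A loop passed over the whole Hist1 window in 1 case and over the whole Hist2 window in 3, each longer than 5 Mb and with no edge in the window.

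Before the anchor-free stretch, the Hist1 loops were mostly separate. A loop of 6.51 kb from 21801724 to 21808238 (score 2000) met one of 18.4 kb from 21808100 to 21826506 (score 3000) at a shared anchor 138 bp wide. The remaining 3 shared no anchor. They ran from 22029056 to 22066600 (37.5 kb, score 2000), from 22073162 to 22098530 (25.4 kb, score 2000) and from 22127419 to 22135057 (7.64 kb, score 3000). Of the 4 connected groups here, sets of anchors joined directly or through each other, 3 were thus a single loop. Single loops also made up 1483 of the 2686 groups (55.2%) in the list of loops up to 5 Mb. With 4 groups, this stretch is not set apart from the list.

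After the stretch came the strongest loop of both windows, from 23493572 to 23503511, 9.94 kb long with a score of 5000. It too shared no anchor. Next to it, 9 anchors from 23515719 to 23713110 formed the largest group, with 8 loops over 197 kb, every one of them at the lowest score.

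The centre of that group was the anchor at 23626970 to 23627310, 340 bp wide, which had 5 partners and a summed score of 10000, the most of any anchor in the windows. Upstream it reached 23522565 (105 kb) and 23537251 (90.1 kb), the longest loops of the 26. Downstream it reached 23636345 (9.38 kb), 23643688 (16.7 kb) and 23678486 (51.5 kb). The other 3 loops extended the group by 1 anchor each, from 23515719 to 23523050 (7.33 kb), from 23531869 to 23537963 (6.09 kb) and from 23678350 to 23713110 (34.8 kb). None of its 13 sets of 3 anchors joined by 2 loops was closed into a triangle.

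The last Hist1 group was compact. It joined 4 anchors by 4 loops over 24.2 kb, from 23831391 to 23855594. Its first 3 anchors were joined each to each: 23831391 to 23838548 (7.16 kb, score 2000), 23838302 to 23844200 (5.90 kb, score 3000) and 23831391 to 23844200 (12.8 kb, score 4000). This was the 1 closed triangle of both windows. The outer loop of the triangle, which passes over the middle anchor, had the highest score of the group. The fourth loop led from 23844070 to 23855594 (11.5 kb, score 2000), so that the anchor at 23844070 to 23844200 had 3 partners and a summed score of 9000.

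**Figure D3:**
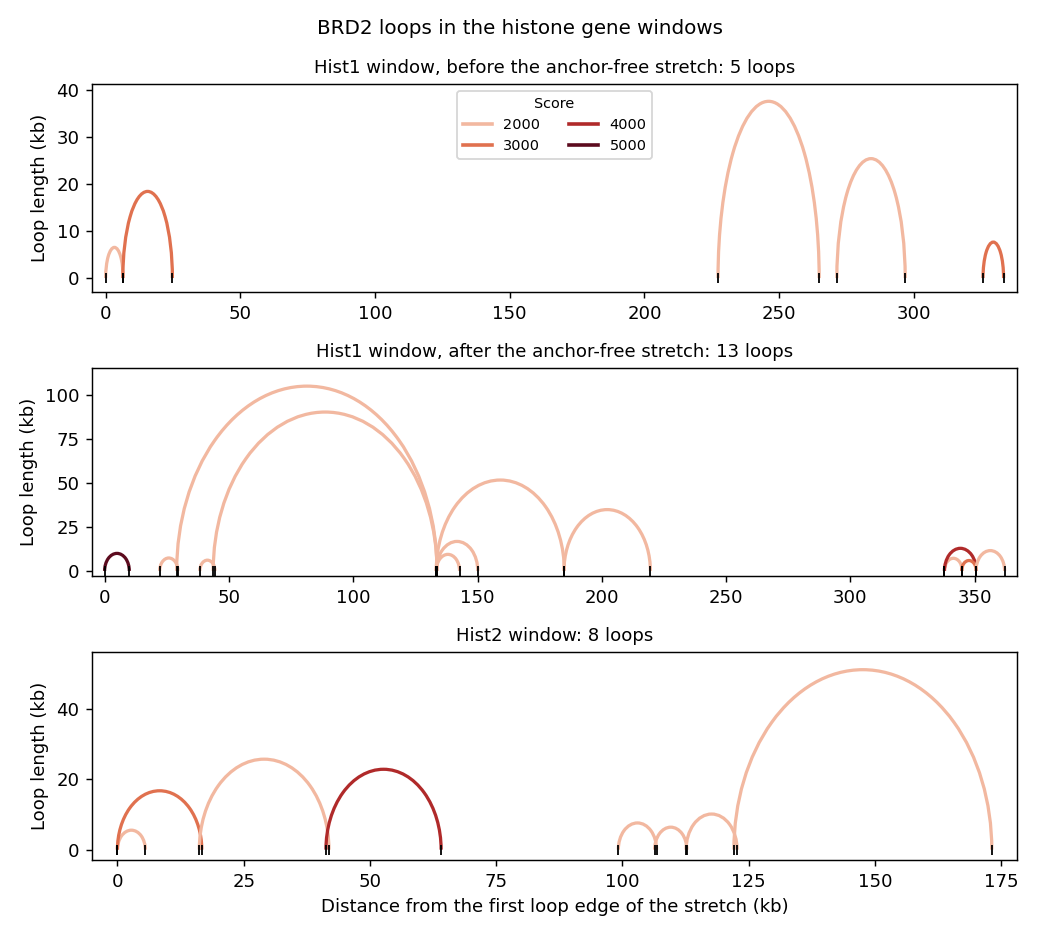
Each arc is 1 loop, drawn between its outer edges (horizontal axis, kb from the first edge of the stretch), with its height equal to its length (vertical axis, kb) and its colour giving the score. Panels show the 5 and 13 Hist1 loops on both sides of the anchor-free stretch and the 8 Hist2 loops. The middle panel shows the group of 197 kb around the anchor with 5 partners and, at its right end, the closed triangle.

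In the Hist2 window the 8 loops formed chains. The first group joined 5 anchors by 4 loops over 64.1 kb. The anchor at 95959812 reached 95965337 (5.53 kb, score 2000) and 95976522 (16.7 kb, score 3000). From the second of these a loop led from 95976027 to 96001700 (25.7 kb, score 2000), and from there another from 96001102 to 96023913 (22.8 kb, score 4000), the strongest of this window.

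The second Hist2 group was an unbranched chain of 5 anchors over 74.0 kb, with all 4 loops at the lowest score. It stepped from 96059000 to 96066582 (7.58 kb), from 96066198 to 96072576 (6.38 kb), from 96072425 to 96082532 (10.1 kb) and from 96081894 to 96132961 (51.1 kb). No Hist2 anchor had more than 2 partners, and no triangle was closed.

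Histone-window anchors had about as many partners as those of the whole list, and most loops joined neighbours. The 26 loops used 34 anchors in 9 connected groups. Of the anchors, 14, or 41.2% (exact 95% interval 24.6 to 59.3%), had 2 or more partners, against 37.4% of 9269 anchors in the list of loops up to 5 Mb. At a minimum score of 3000 this share was 1 of 13 anchors, or 7.69% (0.195 to 36.0%), against 25.2% in the list. The mean was 1.53 ± 0.825 partners (SD over 34 anchors), against 1.63 ± 1.06 in that list. An anchor with 4 or more partners was found once in 34 (2.94%, interval 0.0744 to 15.3%), against 6.56% in the list, which lies inside the interval. Neighbouring anchors, with none between them, were joined by 21 of 26 loops, or 80.8% (60.6 to 93.4%), against 59.8% in the list. These shares were not weighted to loop length, and the histone-window loops were shorter than those of the list. The 12 anchors seen from both sides were 130 to 712 bp wide, with a median of 362 bp, against 349 bp in the list.

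Closed triangles were too few to set the windows apart from the list. Of 23 sets of 3 histone-window anchors joined by at least 2 loops, 1 was closed (4.35%, interval 0.110 to 21.9%), against 990 of 8030 (12.3%) in the list. Of the 5 groups with 3 or more anchors, 4 had 1 loop fewer than anchors, the fewest that can hold a group together (80.0%, interval 28.4 to 99.5%), against 68.2% of the 1203 such groups in the list. Both list values lie inside the intervals.

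**Figure D4:**
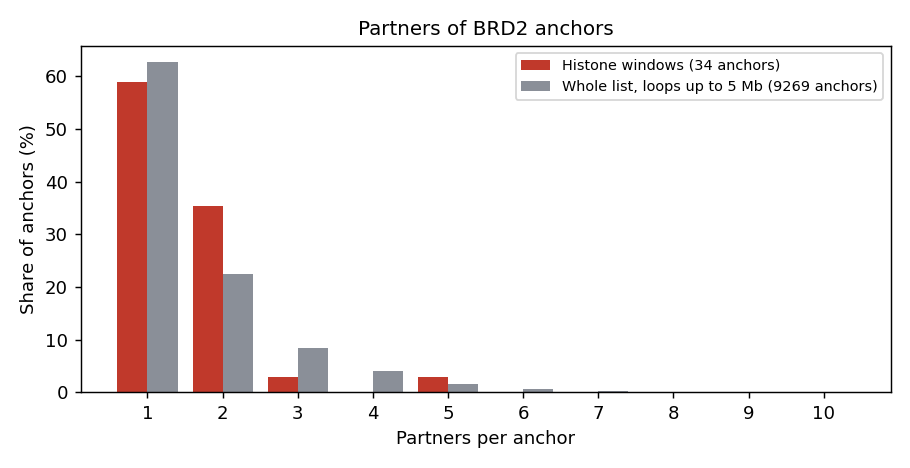
Share of anchors (vertical axis, percent) by number of partners (horizontal axis) for the 34 anchors of the histone windows (red) and the 9269 anchors of all loops of up to 5 Mb (grey). Of the histone-window anchors, 58.8% have 1 partner and 35.3% have 2, against 62.6% and 22.4% in the list.

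The loops around both windows were not joined to them. Upstream, the nearest listed edge outside the Hist1 window was 21623386, 178 kb before its first loop, and downstream it was 24086306, 231 kb after its last. For Hist2 the nearest edges of such loops were 95800083, 160 kb before, and 96209789, 76.8 kb after.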

How the data were processed

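BRD2 ChIA-PET of untreated wild-type V6.5 cells was deposited as 1 loop list, for which the authors merged both replicates and kept high-confidence interactions, per the file header. Build mm9 and the tools Bowtie and cutadapt are named, per the submitters' processing notes. Not given in the sources used here are the interaction caller, its thresholds, the depth and the placing of reads that match several near-identical histone genes. The score of each loop was used as deposited by the authors. Start and end of the first anchor were read as outer edges of a loop, an inference on which lengths and anchors rest. The columns of a second anchor repeat the start and were not used. Edges belonged to 1 anchor where the right one followed the left one within 5000 bp. Anchors, partners and groups were built from loops of up to 5 Mb.

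Intervals printed beside shares are exact Clopper-Pearson 95% intervals, and that of the median is an order-statistic interval. No test between groups was possible. All 26 loops are named, as are all connected groups. The members, windows, gene list and motifs were chosen with earlier results of these data known. Promoters were matched by gene identifier to RefSeq tables on GRCm38.p6 (59 of 66 genes). The anchor, triangle and window steps were tested on simulated data. The simulated anchors all lay more than 5000 bp apart, and the window step was tested on Hist1 alone. Python 3.11.15 was used with scipy 1.17.1, numpy 2.4.6, matplotlib 3.10.9 and pandas 2.3.3.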

Additional observations from a re-analysis of the deposited data

How the results depend on the processing

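With a minimum score of 3000, 7 loops remained in the windows, or 2.92 per Mb of both windows, against 26 loops or 10.8 per Mb as listed, and 7.69% of anchors had 2 or more partners, against 41.2%. The share of loops at 3000 or more has no meaning under that setting and was not computed. Of 22 alternative values, 10 were fixed beforehand and tested nothing: those requiring both edges inside a window, including loops over 5 Mb or setting loops over 1 Mb apart, which left the same loops, and the count of 0 long loops at the minimum score. Of the 12 that could move, 9 stayed within 1.5 times the listed count or inside its interval. Median length ran from 12.2 to 12.8 kb. Widening each window by 100 kb added 3 loops, none over 500 kb. With all edges within 10000 bp joined, 29.4% of anchors (interval 10.3 to 56.0%) had 2 or more partners. Loops whose ends fell into a single anchor, all those of up to 10 kb among them, dropped out under that setting. No list share was computed for it. Among loops of 5 to 50 kb, 31.8% scored 3000 or more. Scanning 300 promoter bases instead of 250 was chosen after seeing the data, and the added 50 bases lie after the RefSeq start. It found TATAAA in 11 instead of 7 of the 17 H2A genes. TATAAA was then in 8 instead of 6 of 11 H4 genes, and CCAAT in 10 instead of 8 of 10 H3 genes. Over all promoters, the 300-base shares were 13.6% for TATAAA and 37.4% for CCAAT. The octamer stayed at 7 of 15 H2B genes. No replicate could be left out of the merged list. No paired analysis was possible because both replicates belong to 1 group. With 73.1% of these loops at the lowest score and the depth unknown, a loop missing from the list cannot be called absent.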
